A study of Homo sapiens with 4 samples.

Results

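The chromatin around 10 chemokine genes was followed in SKBR3 cells, an established HER2-positive breast cancer line, with and without TWEAK. The genes were CXCL1, CXCL2, CXCL3, CXCL5, CXCL6, CXCL8, CXCL10, CCL2, CCL20 and CX3CL1, taken by gene name from GENCODE release 44. Accessible chromatin had been mapped by ATAC-seq, an assay in which a transposase cuts and tags DNA that nucleosomes leave exposed, and the lists of accessible regions (peaks) were compared here. Peaks of the 4 lists that overlapped by at least 1 bp were joined into 307691 sites, and the 203 sites within 100 kb of any annotated start of a member were taken, each counted once. The samples were 2 untreated libraries and 2 from cells that received TWEAK at 10 ng/ml over a period of 48 h. The protocol, given in the same words for all 4 libraries, had an 8 h starvation in optimem before treatment and fresh TWEAK at 24 h. The study's methods name at least a pair of biological replicates for its cell lines, and all libraries came from 1 cell line, so the tests below measure the spread between these libraries and not between tumours.

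TWEAK is a cytokine of the TNF superfamily that binds the receptor Fn14 and activates NF-kB, in part through the non-canonical branch, and MAP kinases that act on AP-1. Chemokines are small secreted proteins that direct the migration of leukocytes. The ELR-type CXC ligands, CXCL1, CXCL2, CXCL3, CXCL5, CXCL6 and CXCL8, attract neutrophils through CXCR2 and, for some of them, CXCR1, CXCL10 is an interferon-inducible ligand of CXCR3 on T cells, CCL2 attracts monocytes through CCR2, CCL20 attracts cells that carry CCR6, and CX3CL1 is made as a membrane-bound ligand of CX3CR1. In epithelial cells many of these genes are textbook targets of NF-kB and AP-1, which bind promoters and distal enhancers.

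The sequences before the starts of these genes are shown first, with the short motifs that promoters with and without a gained peak hold. Motifs were searched on both strands as consensus letters. AP-1 was searched as TGACTCA, which reads with G in its middle on the other strand, C/EBP as TTGCNNAA and TEAD as GGAATGT. NF-kB was searched as GGGRNNYYCC, where R is A or G and Y is C or T. The interferon-stimulated response element (ISRE) was searched by its common consensus. RefSeq promoters were matched for 8 of the 10 genes. In the 250 bases before a start, an NF-kB match lay in 9.96% of 35116 RefSeq promoters, an AP-1 match in 4.20% and an ISRE match in 3.02%. The promoters of CXCL1, CXCL2, CXCL3, CXCL5 and CXCL6 held the same stretch of 11 bases, in capitals here, which holds a pair of overlapping NF-kB matches and ends between 67 and 80 bases before the RefSeq start. The 30 bases around it, read on the strand of the gene (hg38), were:
CXCL1 (chr4:73869305-73869334, plus strand): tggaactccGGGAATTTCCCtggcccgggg
CXCL2 (chr4:74099253-74099282, minus strand): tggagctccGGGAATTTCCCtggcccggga
CXCL3 (chr4:74038748-74038777, minus strand): tggagctccGGGAATTTCCCtggcccggcc
CXCL5 (chr4:73998748-73998777, minus strand): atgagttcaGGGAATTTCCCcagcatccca
CXCL6 (chr4:73836579-73836608, plus strand): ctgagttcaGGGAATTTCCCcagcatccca

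The starts that carry most of the contrast described below were those of CXCL10 and CCL20, which had a peak with TWEAK and not without, and that of CXCL8, which was accessible in every library. Capitals mark matches to NF-kB (CXCL10 and CCL20), to the ISRE (the first capitals of CXCL10) and to AP-1 (CXCL8).
CXCL10 promoter (chr4:76023498-76023747, minus strand): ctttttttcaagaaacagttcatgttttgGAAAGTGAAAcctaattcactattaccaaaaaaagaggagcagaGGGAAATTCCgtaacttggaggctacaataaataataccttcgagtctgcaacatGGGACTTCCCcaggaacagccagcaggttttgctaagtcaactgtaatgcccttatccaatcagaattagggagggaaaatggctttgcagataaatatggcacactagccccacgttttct
CCL20 promoter (chr2:227813592-227813821, plus strand): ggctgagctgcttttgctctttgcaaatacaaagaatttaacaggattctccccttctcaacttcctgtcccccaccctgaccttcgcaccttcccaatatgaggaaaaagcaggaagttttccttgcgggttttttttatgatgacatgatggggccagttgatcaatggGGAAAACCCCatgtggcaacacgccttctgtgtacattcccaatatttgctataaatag
CXCL8 promoter (chr4:73740319-73740518, plus strand): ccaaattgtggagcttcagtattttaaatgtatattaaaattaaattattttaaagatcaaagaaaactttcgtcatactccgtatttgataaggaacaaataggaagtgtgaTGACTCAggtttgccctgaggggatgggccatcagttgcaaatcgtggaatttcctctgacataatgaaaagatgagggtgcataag
The CXCL10 promoter held 2 NF-kB matches and 1 ISRE match. The CCL20 promoter held 1 NF-kB match, and the CXCL8 promoter held 1 AP-1 match. The CXCL8 promoter had no match to the NF-kB consensus, but it holds tggaatttcc, which departs from that consensus only in its first letter. The missing match therefore does not show that the CXCL8 promoter lacks an NF-kB site. These are matches of letters and do not show that a factor was bound.

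Each list holds, for peaks of 1 fixed width, the peak caller's -log10 p. This value grows with sequencing depth, so a peak is described by its rank percentile, the position of its value among all peaks of its own library (100 is the strongest). Where a size is useful, the read pileup over the library-wide background is given, both recovered from the deposited values. The lists held 195315 to 228644 peaks on the autosomes and the X chromosome. The recovered backgrounds, which scale with depth, were 3.59 and 2.24 reads in the untreated libraries and 2.63 and 1.85 in the TWEAK libraries, and the weakest listed peaks stood 2.79 to 3.79 times above them. Read totals are not in the lists. As a check of the cell line, all 6 luminal and HER2 markers (EPCAM, KRT8, KRT18, KRT19, ELF3 and ERBB2) had a peak within 1 kb of a start in every list, at the 95.8th percentile or higher. Of the leukocyte markers reported, CD3E and LYZ had none and PTPRC had one in 1 list. The endothelial CDH5 and the fibroblast COL1A1 and PDGFRB also had a peak in all 4 lists, while PECAM1 and COL3A1 had one in 2. The part of other cells in the results was not tested.

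Near the 10 genes, 132 and 140 peaks were listed in the untreated libraries and 143 and 139 in the TWEAK libraries. The means were 136 ± 5.66 (SD, n = 2) and 141 ± 2.83 (SD, n = 2), and the difference of 5 was smaller than the SD of the untreated libraries. The lists differ in length, and as a share of its list the peaks near these genes made up 0.0634% and 0.0612% in the untreated libraries and 0.0655% and 0.0712% in the TWEAK libraries. The shares did not overlap, with means of 0.0623% ± 0.0015 (SD, n = 2) and 0.0683% ± 0.0040 (SD, n = 2), so the count and the share gave different answers. Of the 203 sites, 93 had a peak in all 4 lists, which is 45.8% against 42.8% of all sites, and 63 had a peak in 1 list only. Sites of 1 list were weak, with a median percentile of 15.99 against 71.5 for the sites in all 4. Among the 93 sites the percentiles of the untreated replicates differed by a median of 3.39 points and those of the TWEAK replicates by 2.92 points.

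In all, 14 sites near these genes were gained with TWEAK, meaning a peak in both TWEAK lists and in neither untreated list, and 5 were lost, meaning the opposite. Over all sites 3.6% were gained and 3.79% were lost, so the members' 6.90% gained stood above that background and their 2.46% lost below it. These shares are a description of 2 against 2 libraries, and they were not tested. The excess of gained over lost sites did not hold without an untreated library. Near the members 17 sites were gained and 26 lost without untreated replicate 1, and 18 and 19 without untreated replicate 2, against 28 and 10 without TWEAK replicate 1 and 30 and 12 without TWEAK replicate 2. The shares over all sites moved with these counts. In the order of the libraries just named, the members' gained share was 8.90%, 9.78%, 14.9% and 15.7% against 6.54%, 7.63%, 9.09% and 11.6% of all sites, and their lost share was 13.6%, 10.3%, 5.32% and 6.28% against 15.9%, 11.5%, 9.29% and 6.56%. Of the 14 gained sites, 3 lay above the 50th percentile in both TWEAK libraries (21.4%, against 16.4% of all gained sites), and 3 had a peak of an untreated library within 500 bp (21.4%, against 27.5% of all gained sites). None of the 5 lost sites was above the 50th percentile in both untreated libraries (5.53% of all lost sites were), and 3 had a peak of a TWEAK library within 500 bp (60.0%, against 34.0% of all lost sites).

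**Figure D1:**
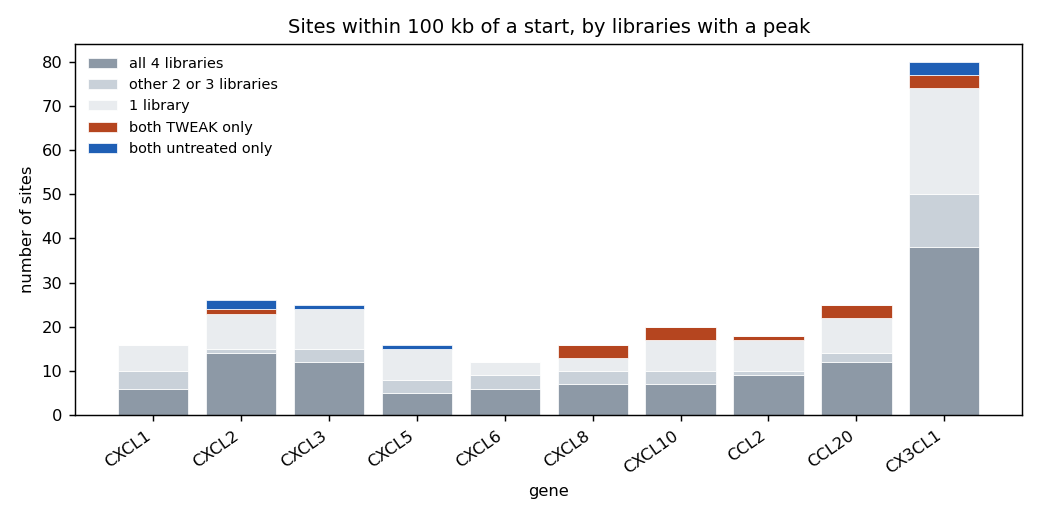
Number of sites within 100 kb of a start of each gene (y axis), divided by the libraries that had a peak there; a site near several genes is drawn for each of them. Most sites were in all 4 libraries or in 1. CXCL8, CXCL10 and CCL20 had 3 sites each with a peak only in both TWEAK libraries, and CX3CL1, with 80 sites in all, had 3 of those and 3 with a peak only in both untreated libraries.

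The gained sites were spread unevenly. CXCL8 had 3 of 16 sites gained, CXCL10 had 3 of 20, CCL20 had 3 of 25 and CX3CL1 had 3 of 80, while CCL2 had 1 of 18 and CXCL2 had 1 of 26. CXCL1, CXCL3, CXCL5 and CXCL6 had none. Of the lost sites, 3 lay near CX3CL1 and 2 near CXCL2, and 1 of the latter was also within reach of CXCL3 and CXCL5. CXCL1, CXCL2, CXCL3, CXCL5, CXCL6 and CXCL8 lie close together on chromosome 4, and 37 of the 203 sites were within 100 kb of more than 1 member, and 27 other protein-coding genes had a start in the same windows. A site is assigned here by distance, which does not show which gene it acts on.

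The clearest difference at a start was at CXCL10 (ENSG00000169245.6, chr4:76021118-76023497, minus strand). The site over its start (chr4:76023332-76023851) had no peak in either untreated library and ranked at the 66.9th and 66.0th percentiles in the TWEAK libraries. There its pileup was 14.8 and 17.9 times the background. The nearest peak of an untreated library was 15766 bp away, the farthest of any gained site near these genes. The printed NF-kB and ISRE matches lie inside this site. The 7 sites near CXCL10 with a peak in all 4 libraries had no rank change past the threshold of the test given below. Another 2 gained sites lay 66.6 kb and 84.9 kb upstream of the CXCL10 start, in an intron and an exon of ART3, a gene of the mono-ADP-ribosyltransferase family, and both were weak. They ranked at 29.2 and 17.9, and at 21.4 and 7.37, in the TWEAK libraries.

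The start of CCL20 (ENSG00000115009.13, chr2:227805739-227817564, plus strand) showed the same order of libraries at lower ranks. GENCODE gives this gene 4 starts over 9.63 kb, and the RefSeq start lies 8.10 kb inside the gene record. The gained site over the RefSeq start (chr2:227813590-227814166) ranked at 29.2 and 12.3 in the TWEAK libraries, and a further gained site beside it (chr2:227814201-227814791) ranked at 48.6 and 40.5. The nearest untreated peak was 3350 bp or more from either. The second site held C/EBP and TEAD matches. A further gained site, 85.6 kb upstream of the gene record and nearest to the thiamine transporter gene SLC19A3, ranked at only 2.25 and 12.3.

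The other starts were accessible without TWEAK or hardly accessible at all. CXCL8, coding for interleukin-8, had a strong peak over its start in every library, at 91.5 and 91.6 untreated and 91.3 and 87.5 with TWEAK (limma, adjusted p = 0.489). CXCL3 ranked at 72.6 in both untreated libraries and at 68.2 and 68.4 with TWEAK (limma, adjusted p = 0.630). CXCL2 ranked at 67.8 and 66.9 untreated and at 66.2 and 64.1 with TWEAK (limma, adjusted p = 0.852). At these 3 starts the TWEAK ranks lay below the untreated ranks without overlap, by margins that the test did not call. The same order was found at 35.4% of all sites with a peak in all 4 lists, so it is not particular to these starts. In pileup over background the order was not the same, since CXCL2 was higher with TWEAK (14.4 and 16.8 against 13.1 and 13.4) and the groups overlapped at CXCL3 and CXCL8. The CXCL1 start was weak throughout, at 23.7 and 28.8 untreated and 25.5 and 27.3 with TWEAK (limma, adjusted p = 0.993), although a site 1.17 kb upstream of it, noticed after its values were seen, averaged the 92.3rd percentile over the 4 libraries. CXCL5 had a start peak in untreated replicate 1 (19.8) and TWEAK replicate 2 (12.3) only, and CXCL6 in TWEAK replicate 2 only (7.37). The shared NF-kB stretch printed above thus lay before RefSeq starts whose sites were of very different rank, and none of those 5 starts was gained. For CXCL3 the stretch lay inside the gene record, after its most upstream GENCODE start.

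CCL2 and CX3CL1 were also open in both conditions. A site 124 bp upstream of the CCL2 start (chr17:34254590-34255150), with NF-kB, TEAD and FOX matches, ranked at 74.6 and 77.3 untreated and 75.0 and 75.5 with TWEAK (limma, adjusted p = 0.938). The CX3CL1 start (chr16:57372125-57372638) was the strongest of the 10, at 97.7 and 96.6 untreated and 97.1 and 96.5 with TWEAK (limma, adjusted p = 0.719). Next to it, sites 127 bp downstream of a start, 541 bp upstream of one and 418 bp downstream of one were also in all 4 libraries. The middle one was lower with TWEAK (62.1 and 54.5 against 74.6 and 70.7) without passing the threshold (limma, adjusted p = 0.0921). Weaker peaks within 1 kb of a start were found in 1 list at CXCL2 (untreated replicate 1) and CCL2 (untreated replicate 2) and in 3 lists at CX3CL1.

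**Figure D2:**
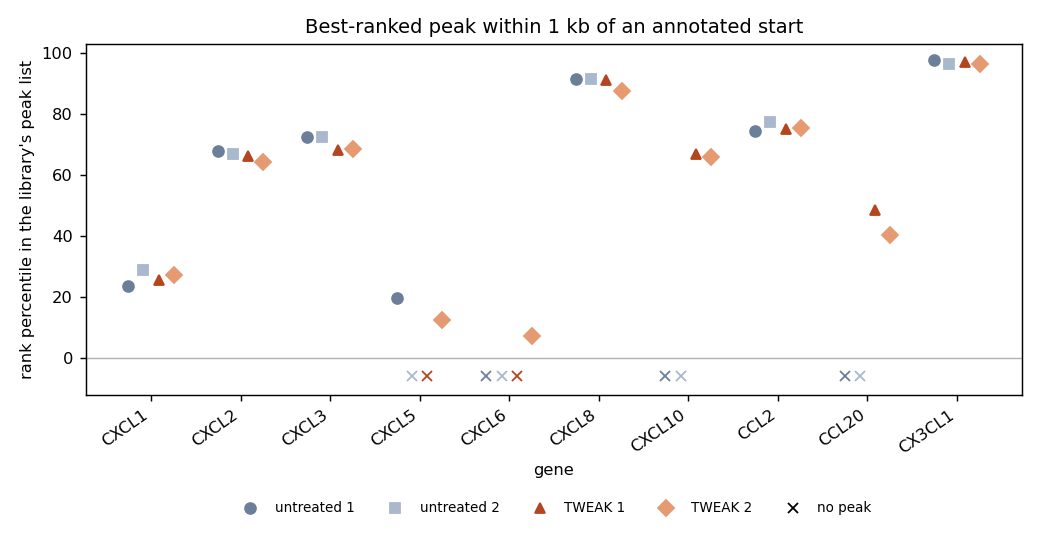
Rank percentile of the best-ranked peak within 1 kb of an annotated start (y axis) for each gene (x axis), with 1 point per library and a cross where the library had no peak there. CXCL10 and CCL20 have points only for the TWEAK libraries. The points of CXCL1, CXCL2, CXCL3, CXCL8, CCL2 and CX3CL1 lie close together in all 4 libraries.

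Away from the starts, the region upstream of CXCL8 held 3 gained sites. The strongest (chr4:73727558-73728070), 12.4 kb upstream, ranked at 65.4 and 72.7 in the TWEAK libraries, with the nearest untreated peak 1073 bp away. A site 35.5 kb upstream ranked at 40.6 and 37.7, and it held 2 AP-1 matches and 1 C/EBP match. The third, 74.1 kb upstream and nearest to RASSF6, a gene of the Ras-association domain family, differed widely between the TWEAK replicates, at 29.2 and 68.4. The CXCL8 start itself ranked high in every library, so in this gene the gained peaks were distal. The sequence around the middle of the site with the AP-1 matches, which are in capitals, was:
35.5 kb upstream of CXCL8 (chr4:73704620-73704820, plus strand): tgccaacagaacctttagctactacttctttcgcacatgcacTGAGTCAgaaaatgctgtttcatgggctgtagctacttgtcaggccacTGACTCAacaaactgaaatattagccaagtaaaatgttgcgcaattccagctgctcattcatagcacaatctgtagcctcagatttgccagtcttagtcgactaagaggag

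On the far side of the cluster, towards CXCL2, a gained site and 2 lost sites were found. The gained site (chr4:74190185-74190758) lay in an intron of MTHFD2L, which codes for a mitochondrial enzyme of folate metabolism, ranked at 46.8 and 40.5, and had an untreated peak 223 bp away. A lost site in another part of the introns of MTHFD2L (chr4:74197006-74197560) ranked at 45.8 and 53.0 in the untreated libraries. The other lost site (chr4:74042632-74043151), 3.83 kb upstream of CXCL3, ranked at 10.3 and 51.0, so the untreated replicates themselves differed more there than at most sites.

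**Figure D3:**
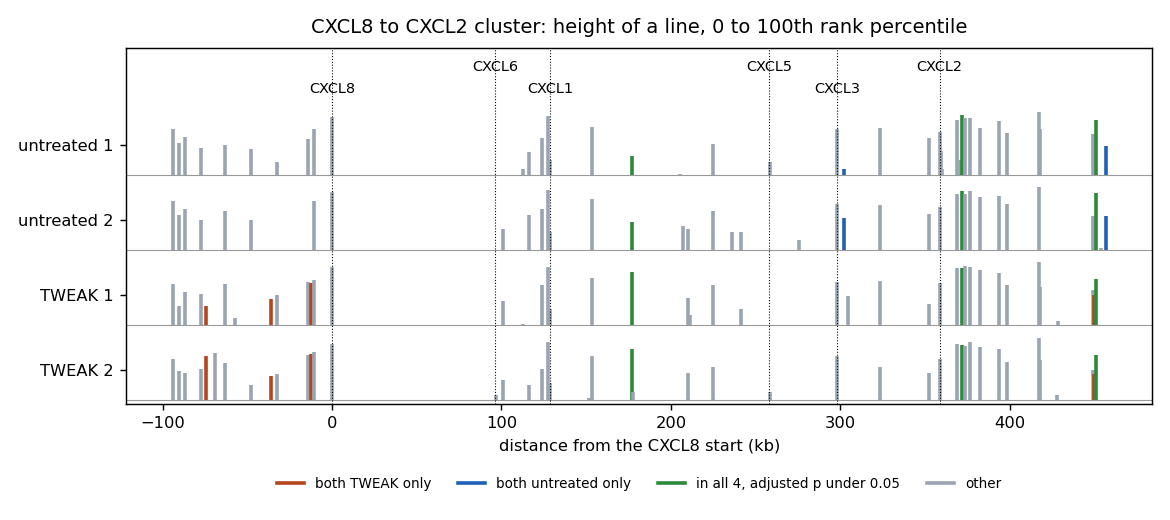
Sites around CXCL8, CXCL6, CXCL1, CXCL5, CXCL3 and CXCL2 by distance from the CXCL8 start (x axis, kb), with 1 row per library; the height of a line is the rank percentile of the peak, from 0 to 100, and dotted lines mark the start of each gene record. The 3 gained sites left of CXCL8 appear in the TWEAK rows only, and the site 47.7 kb beyond the CXCL1 start stands higher in both TWEAK rows than in both untreated rows.

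Near CX3CL1 the gained sites included the strongest of all 14 by rank (chr16:57299799-57300335), 72.1 kb upstream, at 92.0 and 87.9 in the TWEAK libraries. It lay only 38 bp from an untreated peak, beside a strong site that all 4 libraries shared, which ranked at 98.2 and 98.5 untreated and at 98.6 and 97.9 with TWEAK. A second gained site, 55.4 kb upstream (chr16:57316603-57317123), ranked at 38.1 and 47.4, had no untreated peak within 8138 bp and held 1 AP-1 match. The third ranked at 32.5 and 31.2 and had an untreated peak 91 bp away. The 3 lost sites had a TWEAK peak 340, 74 and 30 bp away. They lay in an intron of PLLP, between genes near CCL22 and at the start of CCL17, a pair of genes for ligands of CCR4, and ranked between 2.13 and 48.9. The window of the gained site with the AP-1 match, in capitals, was:
55.4 kb upstream of CX3CL1 (chr16:57316753-57316953, plus strand): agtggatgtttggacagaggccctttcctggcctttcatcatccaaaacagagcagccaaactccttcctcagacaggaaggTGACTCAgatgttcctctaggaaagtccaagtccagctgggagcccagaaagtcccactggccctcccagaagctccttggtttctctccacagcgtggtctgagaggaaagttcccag

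CCL2 had 1 gained site, 36.4 kb downstream and nearest to CCL11, the eosinophil chemoattractant eotaxin. It was weak, at 6.62 and 17.9 in the TWEAK libraries, with the nearest untreated peak 14160 bp away, and it held 1 AP-1 match, in capitals here:
36.4 kb downstream of CCL2 (chr17:34291892-34292092, plus strand): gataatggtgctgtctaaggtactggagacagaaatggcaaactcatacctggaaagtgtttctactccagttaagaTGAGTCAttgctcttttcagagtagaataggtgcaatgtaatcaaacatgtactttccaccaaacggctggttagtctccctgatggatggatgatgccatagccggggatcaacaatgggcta

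Sites with a peak in all 4 lists were compared by rank with limma (eBayes with a trend) on normal scores of the rank. This scale spreads the ranks of a list as a normal distribution, of which 1 unit is 1 SD. A given difference in percentile points is therefore larger in normal scores towards either end of a list. The fit covered 131751 sites with Benjamini-Hochberg adjustment over all of them and a threshold of 0.05. Over all of these sites 3.87% rose and 4.75% fell past the threshold. On log2 pileup over background the split over all sites was different, with 10607 higher and 1503 lower against 5099 and 6257 by rank, and the median site was 0.14 higher with TWEAK on that log2 scale. Of the 93 member sites, 5 rose (5.38%) and 2 fell (2.15%), and on the pileup scale 6 were higher and 1 lower, of which 4 and 1 were among the sites called by rank. The ranks of both TWEAK libraries were above both untreated ones at 13 of the 93 sites (14.0%, against 15.8% of all sites) and below at 29 (31.2%, against 35.4%). On the pileup scale 6.45% of the member sites were higher, against 8.05% of all sites, so whether the members' share that rose lay above or below that of all sites depended on the scale. The single sites are described next.

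The largest rise was at a site 47.7 kb downstream of the CXCL1 start, between genes (chr4:73917099-73917681). It ranked at 30.3 and 43.8 in the untreated libraries and at 82.5 and 79.5 with TWEAK, with no overlap. The pileup rose from 4.74 and 6.71 to 29.2 and 30.3 times the background. The difference was 1.21 ± 0.17 (SE) in normal scores (limma, adjusted p = 2.85e-06), and this site, which also lies within 100 kb of CXCL5 and CXCL6, held 1 AP-1 match.

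Near CCL20 the ranks of 2 sites rose. The first lay 8.89 kb upstream of the most upstream start (chr2:227796339-227796850), ranked at 59.3 and 71.4 untreated and at 91.3 and 91.1 with TWEAK, and had the smallest adjusted p of the member sites, with a difference of 0.95 ± 0.11 (SE; limma, adjusted p = 1.80e-07). Its pileup was 9.76 and 16.1 times the background untreated and 50.5 and 56.9 times with TWEAK. None of the 10 motifs searched had a match within 100 bp of its centre. The second, 47.8 kb downstream and nearest to DAW1, a gene of ciliary dynein assembly, ranked at 45.8 and 48.9 untreated and at 75.4 and 70.7 with TWEAK (difference 0.68 ± 0.16 SE; limma, adjusted p = 0.00475) and held 1 AP-1 match.

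A site 19.3 kb upstream of CCL2 (chr17:34235357-34235979) rose from 38.0 and 40.8 to 76.2 and 70.0, again with no overlap, while the CCL2 start did not change. The difference was 0.89 ± 0.17 (SE; limma, adjusted p = 7.22e-04), and the pileup went from 5.58 and 6.26 to 21.6 and 20.6 times the background. The site held 2 NF-kB matches and 1 FOX match. The fifth site that rose, 67.8 kb upstream of CX3CL1 (chr16:57304126-57304640), was already among the strongest, at 96.3 and 96.8 untreated and 98.2 and 97.9 with TWEAK (difference 0.25 ± 0.08 SE; limma, adjusted p = 0.0351). It held 1 NF-kB match and lost significance when any 1 of the 4 libraries was left out, with an adjusted p of up to 0.192, and on the pileup scale (limma, adjusted p = 0.0962). The windows of the rising sites near CXCL1 and CCL2, chosen for display after their values were seen, were as follows, with the AP-1 match of the first and the NF-kB matches of the second in capitals:
47.7 kb downstream of CXCL1 (chr4:73917249-73917449, plus strand): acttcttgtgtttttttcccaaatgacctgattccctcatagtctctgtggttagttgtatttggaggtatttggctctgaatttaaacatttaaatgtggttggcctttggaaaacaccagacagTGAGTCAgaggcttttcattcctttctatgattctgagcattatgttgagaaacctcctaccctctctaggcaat
19.3 kb upstream of CCL2 (chr17:34235589-34235789, plus strand): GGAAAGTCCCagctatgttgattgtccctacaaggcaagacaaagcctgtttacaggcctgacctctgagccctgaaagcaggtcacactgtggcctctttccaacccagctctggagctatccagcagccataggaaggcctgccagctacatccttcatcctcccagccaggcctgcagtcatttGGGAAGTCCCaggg

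Both sites that fell lay upstream of CXCL2. One, in an intron of MTHFD2L 91.8 kb from the CXCL2 start (chr4:74190982-74191496), ranked at 85.7 and 90.1 untreated and at 72.7 and 71.4 with TWEAK, and fell by 0.59 ± 0.11 (SE) in normal scores (limma, adjusted p = 3.16e-04). The gained site at 223 bp from an untreated peak is its neighbour. The other, 13.1 kb upstream of CXCL2 (chr4:74112255-74112787), ranked at 94.0 and 92.5 untreated and at 89.3 and 86.2 with TWEAK, and fell by 0.33 ± 0.09 (SE; limma, adjusted p = 0.0160). It lost significance without untreated replicate 1 (limma, adjusted p = 0.177) or without TWEAK replicate 2 (limma, adjusted p = 0.176), and on the pileup scale (limma, adjusted p = 0.291). Without the trend in limma none of the 7 sites passed (adjusted p 0.105 to 0.304). In a fit over sites with a peak in at least 2 lists, those near CXCL1 and upstream of CCL20 kept the call, and the adjusted p of the other 5 ran from 0.0512 to 0.126.

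**Figure D4:**
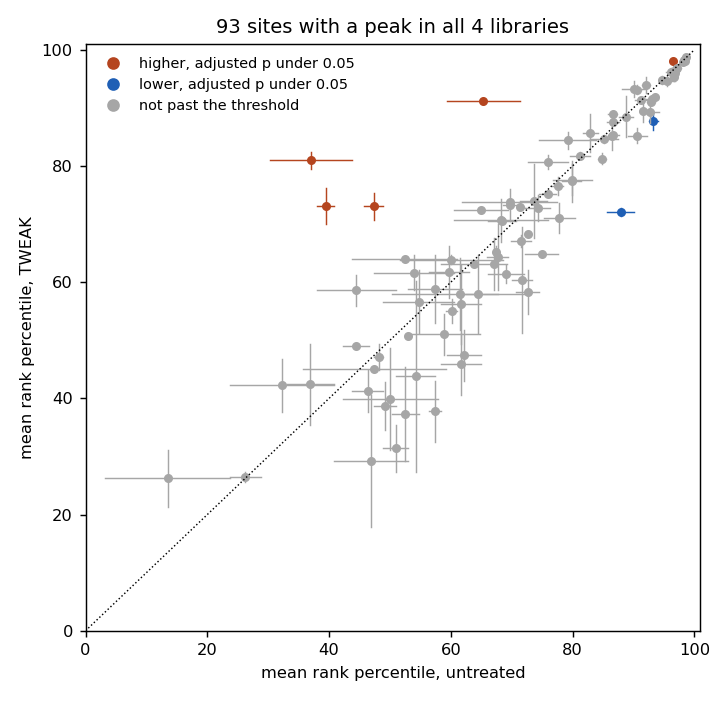
Mean rank percentile with TWEAK (y axis) against that in untreated cells (x axis) for the 93 sites with a peak in all 4 libraries; lines join the values of the 2 replicates of each group and the dotted line marks equal ranks. The 4 red points far above the line are the sites near CXCL1, CCL20 (2) and CCL2, and the fifth lies at the top right, near CX3CL1. The 2 blue points are the sites that fell.

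**Figure D5:**
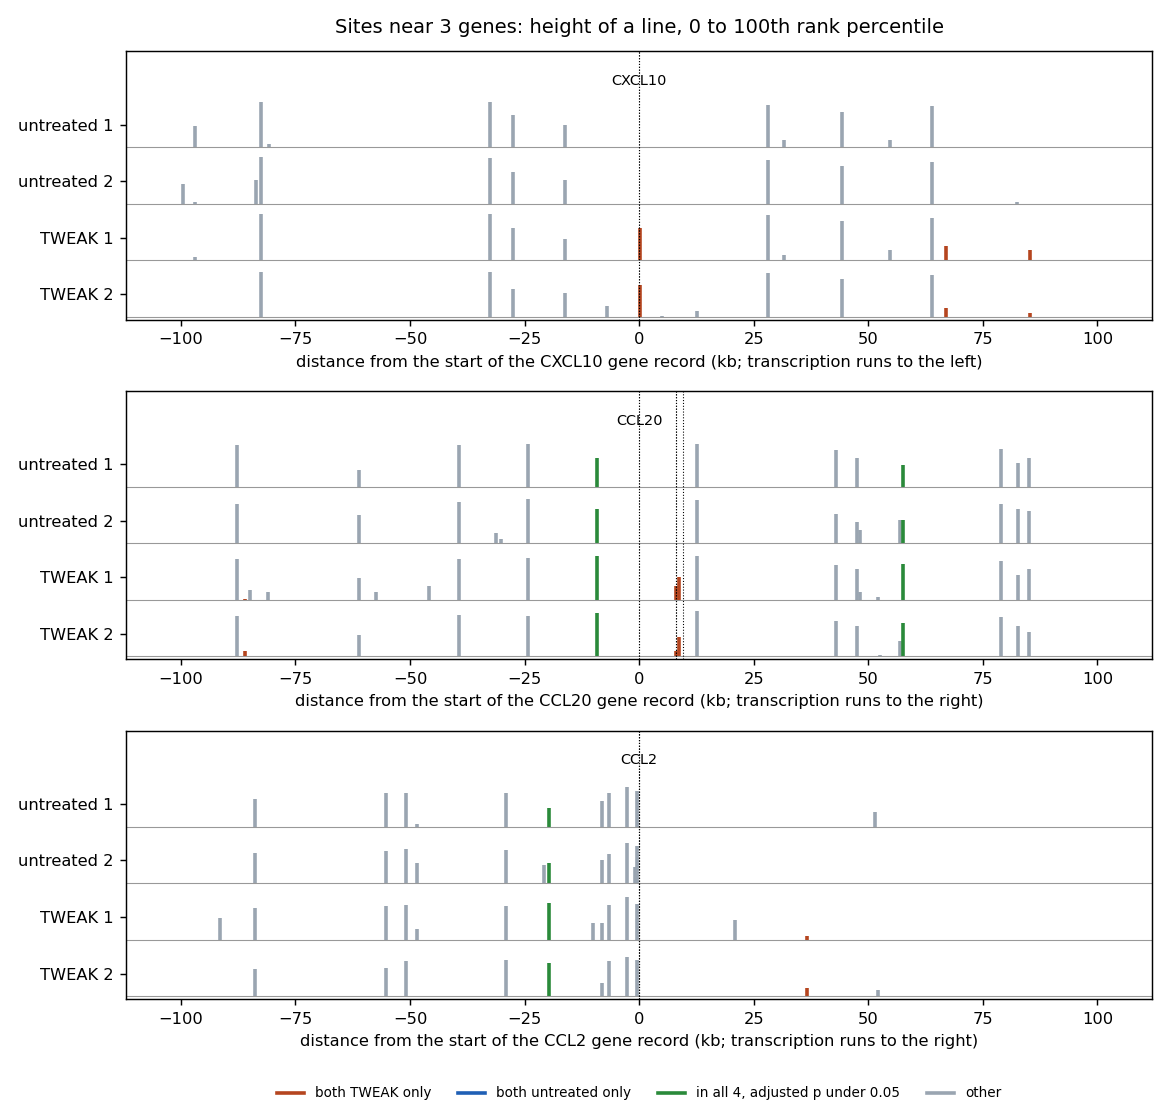
Sites around CXCL10, CCL20 and CCL2 by distance from the start of the gene record (x axis, kb), with 1 row per library and the rank percentile of each peak, from 0 to 100, as the height of its line; dotted lines mark annotated starts. The site at the CXCL10 start and those at the CCL20 start, 8.10 kb inside the record, appear in the TWEAK rows only, and the green site upstream of CCL2 is taller in the TWEAK rows.

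Motif matches were then counted over all member sites, in a window of 100 bp to either side of the centre of each site's strongest peak. An NF-kB match was found in 23 of the 203 sites, or 11.3% (95% Wilson interval 7.67 to 16.4), against 6.21% of all sites, and an AP-1 match in 9.85% against 9.01%. A TEAD match was found in 10.3% against 5.04%. Of the others, C/EBP had 11.8% against 10.99%, FOX (TGTTTAC) had 7.39% against 5.59%, and GRHL (AACNNGTT) had 4.93% against 4.29%. The shares near the members were below those of all sites for TFAP2 (GCCNNNGGC), at 10.8% against 12.1%, for STAT (TTCNNNGAA), at 4.43% against 5.80%, and for the ISRE, at 1.97% against 2.15%. ETS (CCGGAAGT) matches were rare in both, at 0.493% against 0.528%. Among the 14 gained sites, 2 held NF-kB and 3 held AP-1 matches, and among the 5 lost sites 1 and 0. Over all gained sites of the genome 20.1% held NF-kB and 16.6% held AP-1 matches, over all lost sites 4.28% and 4.90%. Of the 5 sites that rose, 2 held NF-kB and 2 held AP-1 matches, and neither site that fell held one of these. Over all sites that rose, 26.9% held NF-kB and 26.7% held AP-1 matches. The interval covers counting error only, and neighbouring sites are not independent.

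By position, 24.1% of the member sites lay within 1 kb of the start of a protein-coding gene, 19.7% in introns and 51.7% between genes, against 16.2%, 38.1% and 41.8% of all sites. Among sites in all 4 libraries the median percentile was 71.5 near the 10 genes and 66.2 over all sites. The strongest shared sites did not lie at chemokine starts in the CXCL1 to CXCL8 cluster, where the highest averaged 98.3 at the MTHFD2L promoter, or near CXCL10, where the highest, at the NAAA promoter, averaged 95.1.

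The other genes of the chemokine system were counted the same way. The 34 other chemokine ligands had 445 sites within 100 kb that were not also near the 10 genes. Of these sites, 25 were gained (5.62%) and 17 lost (3.82%), against 3.6% and 3.79% of all sites. Of the 182 in all 4 libraries, 9 rose (4.95%) and 3 fell (1.65%), against 3.87% and 4.75% over all sites. Of these ligands, 17 had no peak within 1 kb of a start in any library. A gained site lay over the start of CXCL14 (61.2 and 59.8 with TWEAK) and of CCL5 (42.8 and 37.7), and 2 lay near the start of CCL15 (16.4 and 34.6, and 21.4 and 7.37). CXCL14 codes for a chemokine of epithelia and CCL5 for RANTES, which attracts T cells and monocytes. The 21 chemokine receptors had 621 sites, of which 18 were gained (2.90%) and 24 lost (3.86%). Of their 289 sites in all 4 libraries, 10 rose (3.46%) and 14 fell (4.84%), shares near those of all sites. At a receptor start, the CXCR4 site rose from 10.3 and 28.8 to 54.6 and 57.3 (limma, adjusted p = 0.0165), the CX3CR1 site fell from 83.7 and 77.3 to 61.2 and 62.1 (limma, adjusted p = 0.00372), and the CXCR2 site was lost (19.8 and 22.8 untreated). Whether the shares of ligands and receptors differ was not tested.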

How the data were processed

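ATAC-seq of SKBR3 cells was processed by the authors, whose methods and processing notes name adaptor trimming (Trimmomatic), alignment to hg38 (Bowtie2), removal of mitochondrial and duplicate reads (Picard for duplicates) and peak calling per library with MACS2. Tool versions and calling settings are not given in the sources used here. The authors deposited 1 peak list per library, with regions of 1 fixed width and a -log10 p as the score. The score equals that of a Poisson test of a whole-number pileup against 1 background per library, from which pileup and background were recovered here. Read totals, and so depth, are not known, and the study's test on reads (DiffBind) was not repeated.

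From these lists, peaks of chromosomes 1 to 22 and X were joined at an overlap of 1 bp or more. A site took the best-ranked peak of each list. Samples were grouped by their titles. Ranks were turned into normal scores and compared with limma 3.58.1 in R 4.3.3, TWEAK minus untreated, over all sites in all 4 lists. The fit was also run on simulated data, in which the spread of a site depended on its mean rank alone. That is what the trend assumes, so the simulation could not check the trend, and no conclusion is drawn from it. Other steps used Python 3.11.15, numpy 2.4.6, pandas 2.3.3, scipy 1.17.1 and pysam 0.24.0. Annotation was GENCODE release 44 (protein-coding genes), promoters were from RefSeq (hg38), and distal sequences from the hg38 genome. Named sites were all gained and lost member sites, all within 1 kb of a member's start, and those called by limma. Shared sites outside this rule, upstream of CXCL1, beside a gained site near CX3CL1 and at the MTHFD2L and NAAA promoters, were named after their values were seen. A marker gene and the sequence of a gained site are not reported here. The members and gene lists were chosen with earlier results of these data known. Alternatives for merging, strength, distance, scale, trend, pairing and left-out libraries are in the closing section. With 2 libraries against 2, an exact permutation test of a single value cannot go below 0.333, so none was made.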

Additional observations from a re-analysis of the deposited data

How the results depend on the processing

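Without the trend in limma no site was called, near the members (0 higher, 0 lower) or over all sites, where 23156 had an unadjusted p under 0.05. Lost sites near the members fell from 5 (3.79% of all sites) to 3 at a deposited value of at least 5 (3.36%), to 2 where the pileup was 5 times the background or more (2.33%), to 2 without those that had a peak of a library lacking the site within 500 bp (2.50%), to 0 above the 50th percentile (0.21%) and to 3 at a distance of 50 kb, and gained sites from 14 (3.6% of all sites) to 3 above the 50th percentile (0.59%) and to 7 at 50 kb. With 1 library left out, gained sites ran from 17 to 30 and lost sites from 10 to 26, while over all sites the gained share ran from 6.54% to 11.6% and the lost share from 6.56% to 15.9%. Member sites lower in rank changed from 2 (4.75% of all sites) to 1 on log2 pileup over background (1.14%), to 0 over sites with a peak in at least 2 lists (0.21%) and to 1 at 50 kb, and with 1 library left out those higher in rank numbered 4 (2.50% to 3.81% of all sites) and those lower ran from 1 to 6 (1.44% to 8.82%). The mean difference in peaks per library, 5, ran from 1 to 9 with 1 library left out and was 9 where the pileup was 5 times the background or more. Searching the whole site raised the share with an NF-kB match from 11.3% to 22.7% (all sites 6.21% to 15.1%) and that with AP-1 from 9.85% to 17.7% (all sites 9.01% to 15.1%). The causes were not tested. No called site changed direction under any setting, and those near CXCL1 and upstream of CCL20 kept their calls under 10 of 11 settings. Replicate numbers were shared by the groups, but the deviations of same-numbered libraries were uncorrelated (0.0087 over 131751 sites). The ranks thus showed no effect shared by number, which cannot tell whether same-numbered libraries were made together. With the replicate block the member sites called were the same 5 higher and 2 lower. The calls over all sites were 4570 and 5115 with the block, against 5099 and 6257 without it. Ranks among shared sites only, which was added once the data had been seen, gave the same 5 and 2 sites. With 1 library left out, the lone library of its group is assumed to vary like those of the other group. Depth limits weak sites most: the lists begin at different enrichments, so a site missing from a list may have been just under its limit.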
